A study of Mus musculus with 12 samples.

Results

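The complement and coagulation genes were followed by name: 39 mouse gene symbols of the complement cascade, the clotting cascade, fibrin and its removal, and the anticoagulants were listed, and 38 of them were found among the 19037 genes of the expression table. Tfpi2 was not analysed here. The members were picked by pathway, with earlier results of these data known. RNA came from AML12 cells, a mouse hepatocyte line that was derived from a mouse carrying a human TGF-alpha transgene, in 4 groups of 3 libraries each. Histone deacetylases (HDACs) of class I were perturbed in 2 ways. Cells of the FK228+YF group overexpressed YF mutants of these enzymes and also received FK228, cells of the FK228 group received FK228 only, cells of the YF group overexpressed the mutants only, and the control group stood for neither. FK228 is romidepsin, an inhibitor of class I HDACs, and the sample titles call it HDI. GFP stands in the descriptions of the FK228 and control libraries without an explanation. Dose, treatment time, vector and the mutated HDACs were not stated in the labels. Separate cultures are not named either, so p-values refer to the spread from library to library, and that spread may be technical.

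The liver makes most plasma complement and clotting proteins, and hepatocytes secrete them as inactive precursors. In the classical and lectin routes, serine proteases bound to a recognition molecule cut C4 and C2, and in the alternative route factor B takes the place of C2. The resulting convertases cleave C3 and then C5, and the terminal components assemble into a membrane pore. Clotting starts when tissue factor meets factor VII and runs through factors X and V to thrombin, which turns fibrinogen into fibrin. Plasmin, made from plasminogen by tissue or urokinase activators, dissolves the clot. Membrane and plasma regulators such as Cd55, factor I and protein C hold each cascade in check.

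Libraries held 23664446 to 26122998 estimated counts, and the members took 0.289 to 0.762% of them. Hdac1, a class I HDAC gene, averaged 798 ± 2.16 CPM (counts scaled to library size) with FK228+YF, 110 ± 3.3 with FK228, 402 ± 18.9 with YF and 97.7 ± 5.14 in control (SD, n = 3 each), so the libraries labelled YF carried more Hdac1 RNA than the others. Of the hepatocyte markers, Alb (albumin) was near 0 in every group, at 0.0387 ± 0.000177 CPM in control, while Apob and Hnf4a were present at 429 ± 26.2 and 177 ± 7.51 CPM in control. The label hepatocyte therefore goes with some hepatocyte genes and not with albumin. In bulk RNA, fewer cells of a type and less RNA per cell cannot be told apart, which touches every difference below.

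Most of these genes are products of hepatocytes in the liver, yet many were barely transcribed in this line. Of the 38 members, 24 held enough counts for testing (about 0.393 CPM or more in at least 3 libraries) and 14 did not. All 3 libraries reached that level only in the FK228+YF, FK228 and YF groups for F5, and only in control for C6. For Fgb this held in the YF group only, and for Fga in the YF and control groups. Such a gene may pass because it is high in some groups, which favours a difference. Counts over the tested members are therefore given as description beside the share of all 13346 tested genes. The p-values of these 4 genes are taken from a fit with no count filter. A gene is called where edgeR's quasi-likelihood test gave a Benjamini-Hochberg adjusted p under 0.05 over all tested genes. In the fit with no filter these 4 genes were called, or not called, as in the filtered fit in all 7 comparisons. Their log2 fold changes and SE are given from the filtered fit. Where they were called, the adjusted p with no filter was the smaller one. For F5 with FK228+YF against control it was 1.86e-19, against 8.52e-11 in the filtered fit (edgeR).

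Per unit of transcript length, clusterin (Clu), a secreted chaperone that also blocks the terminal complement pathway, was the most abundant member in each group. Clu reached 4140 ± 155 TPM (abundance scaled to transcript length and library size) with FK228+YF, 3100 ± 219 with FK228, 1230 ± 145 with YF and 891 ± 99.7 in control. It made up 88.1, 82.0, 59.5 and 51.7% of the summed TPM of the members in those groups, in that order. C3, the central complement component, came next, at 195 ± 6.33 TPM with FK228+YF, 316 ± 62.0 with FK228, 336 ± 72.4 with YF and 369 ± 96.5 in control. Cfb (factor B) and Plaur (the urokinase receptor) held places 3 and 4 in each group, with Plaur above Cfb only with FK228+YF. Cfb stood at 79.9 ± 4.36 TPM there against 89.5 ± 5.7 for Plaur, and at 167 ± 20.3 against 79.6 ± 4.71 in control.

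Below these, the order of levels differed between the groups. With FK228+YF the next genes were Plat (tissue plasminogen activator) at 70.3 ± 2.96 TPM, F3 (tissue factor) at 31.9 ± 4.97, Cd55 at 12.2 ± 0.926 and Procr (the protein C receptor) at 11.3 ± 0.865, and Cd55 and Procr lay within their spread of each other. In control they were Proc (protein C) at 54.0 ± 3.59 TPM, F3 at 27.4 ± 3.84, Cfi (factor I) at 24.8 ± 2.77 and Masp1 at 24.0 ± 1.59, of which the last 3 lay within their spread of each other. An average of at least 1 TPM was reached by 19 members with FK228+YF, 19 with FK228, 22 with YF and 18 in control. Summed over all members, the level was 4700 ± 157 TPM with FK228+YF, 3780 ± 301 with FK228, 2070 ± 240 with YF and 1720 ± 220 in control. Without Clu, the sums were 561 ± 9.12 TPM with FK228+YF, 681 ± 83.8 with FK228, 840 ± 95.5 with YF and 831 ± 120 in control, and the last 2 lay within their spread of each other.

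**Figure D1:**
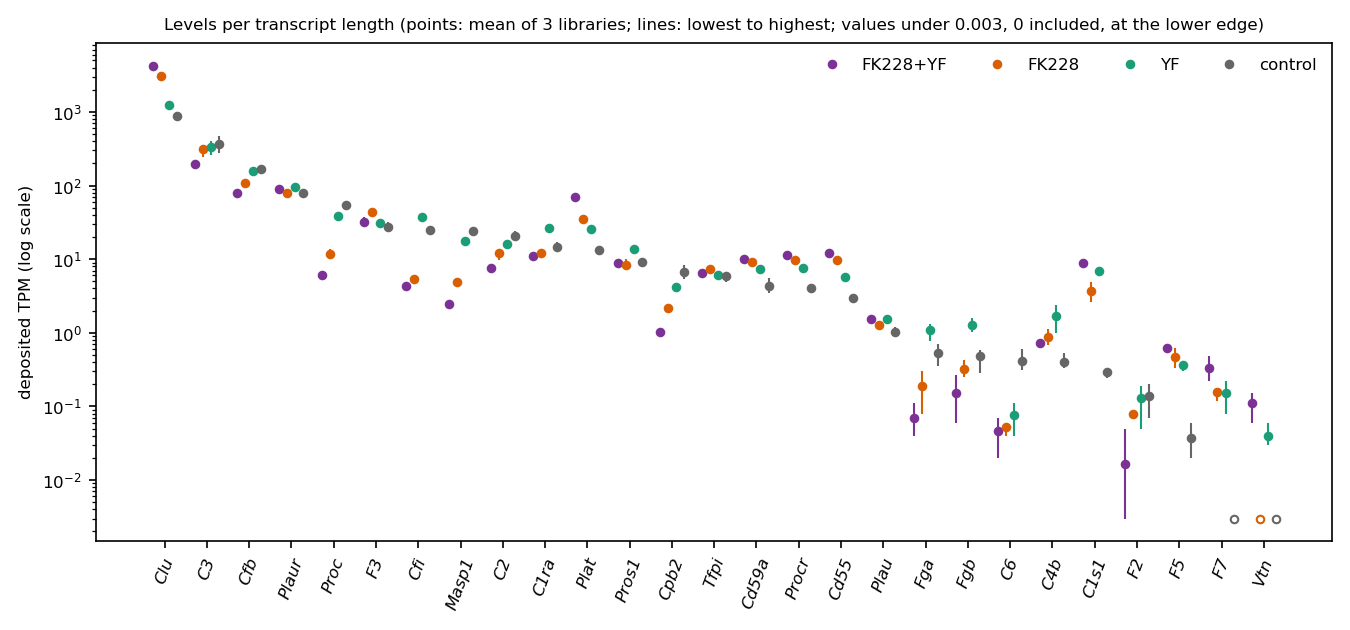
Deposited TPM, on a log axis, of the members that reached 0.1 TPM in at least 1 group, ordered by control level. Points are means of 3 libraries for FK228+YF, FK228, YF and control, from left to right within a gene, and lines run from the lowest to the highest library. Clu lies above all others in each group, C1s1 and F5 are lowest in control, and Fga and Fgb are lowest with FK228+YF.

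Against control, FK228+YF moved the members in both directions. Of the 24 tested members, 10 rose and 11 fell, so 87.5% were called against 77.4% of all genes (38.8% higher and 38.6% lower), and the median log2 fold change was 0.10 for the members and 0.01 for all genes. FK228 alone raised 10 and lowered 8, or 75.0% against 68.8% of all genes (33.2% higher and 35.5% lower), with medians of 0.05 and -0.02. YF alone raised 15 and lowered 5, or 83.3% against 32.6% of all genes. The 15 that rose with YF were 62.5% of the tested members, where 18.0% of all genes rose and 14.6% fell, and the median was 0.51 for the members and 0.01 for all genes. At a difference of at least 2-fold, 16 of the 24 were called with FK228+YF, where 28.4% of all genes were, 14 with FK228 (18.9% of all genes) and 5 with YF (6.48% of all genes). Among the 20 members that reached the count minimum in every group, 9 rose and 8 fell with FK228+YF, 9 rose and 6 fell with FK228, and 12 rose and 4 fell with YF. These 3 comparisons share the control libraries.

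**Figure D2:**
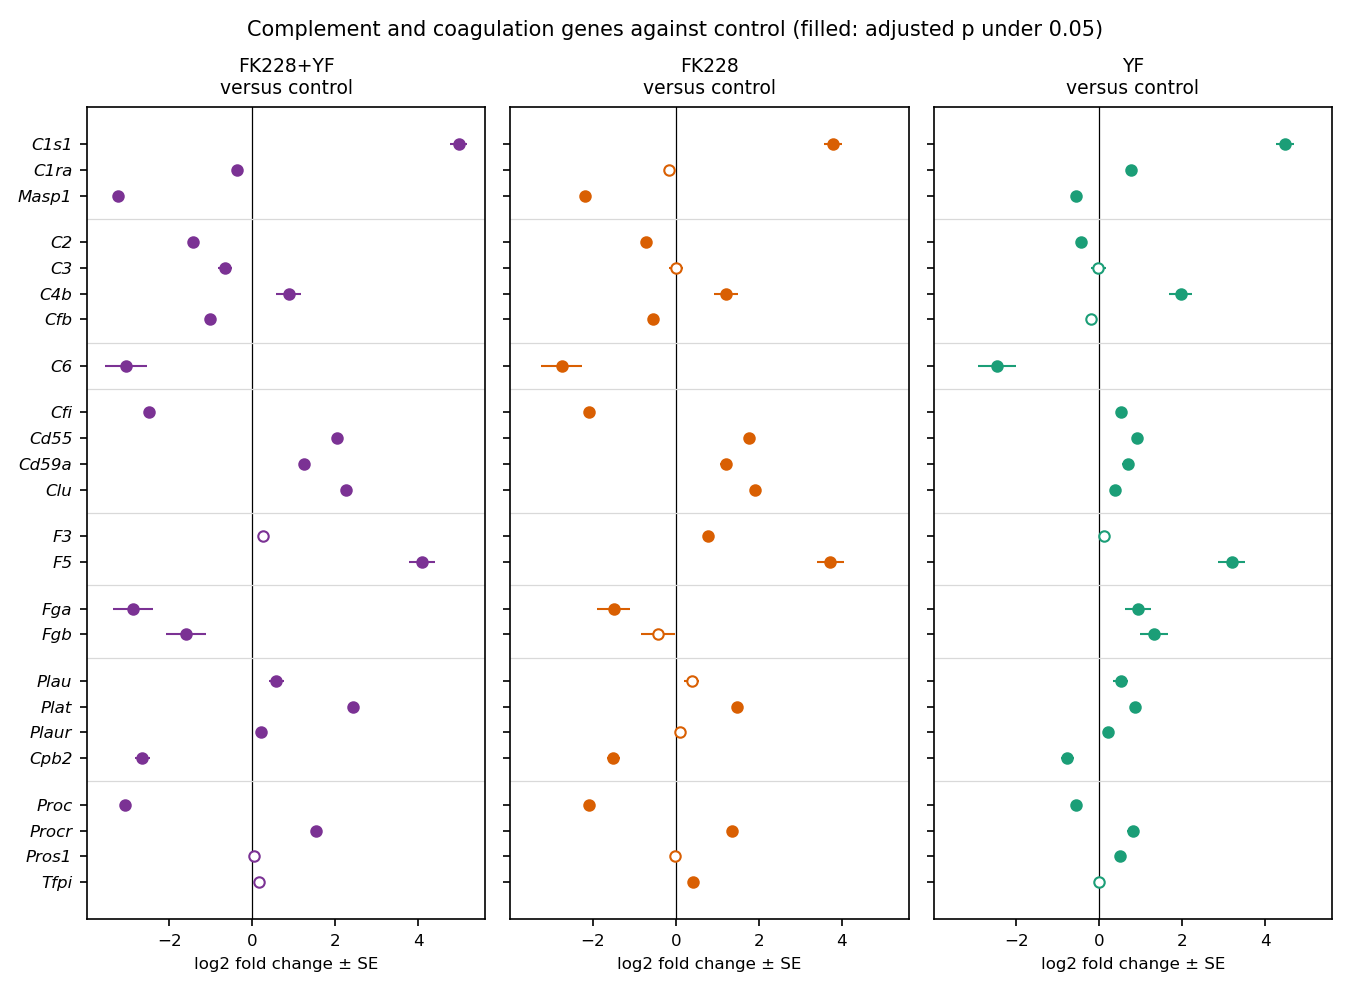
Log2 fold change ± SE of the 24 tested members against control, with FK228+YF on the left, FK228 in the middle and YF on the right. Grey lines part the roles, which run from initiating proteases at the top to anticoagulants at the bottom, and filled points were called at an adjusted p under 0.05. C1s1 and F5 lie far to the right in each panel, while Masp1, Cfi, Fga, Cpb2 and Proc lie to the left with FK228+YF.

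Among the proteases that start the classical and lectin routes, C1s1 rose and Masp1 fell with each treatment. C1s1, which encodes the C1s subunit that cuts C4 and C2, gave 24.7, 19.7 and 20.4 CPM with FK228+YF, 7.18, 9.47 and 11.7 with FK228, 16.4, 13.8 and 15.7 with YF, and 0.542, 0.694 and 0.817 in control. The 4 groups did not overlap, and the FK228+YF libraries were the highest. The log2 fold change against control was 4.97 ± 0.20 with FK228+YF (adjusted p = 1.5e-14, edgeR), 3.78 ± 0.22 with FK228 (8.78e-12) and 4.47 ± 0.21 with YF (4.25e-12). C1s2, a paralog of C1s1, shares 7.9% of the 100-base windows of the C1s1 transcript. It rose as well, to 4.66 ± 0.213 CPM with FK228+YF, 2.02 ± 0.441 with FK228 and 2.47 ± 0.435 with YF, against 0.219 ± 0.145 in control. An antisense gene overlaps 18.4% of the C1s1 exon bases, and whether the counting used strand is not stated.

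C1ra, which encodes the C1r protease that activates C1s, lies 6903 bases from C1s1 on chromosome 6 and did not follow it. C1ra gave 25.4, 26.4 and 25.6 CPM with FK228+YF, 28.5, 31.3 and 28.4 with FK228, 59.5, 52.3 and 56.6 with YF, and 31.2, 37.1 and 30.8 in control. Its YF libraries lay above all others, and its FK228 and control libraries overlapped. It rose with YF (0.77 ± 0.08, adjusted p = 1.43e-07, edgeR) and fell with FK228+YF (-0.36 ± 0.08, adjusted p = 0.00035), and its value with FK228 was -0.17 ± 0.08 (adjusted p = 0.0625, and 0.031 to 0.384 over 19 alternative settings, called in 2). C1ra is uncertain in level, because 34.5% of its transcript windows also occur in the paralog C1rb. Masp1, the lectin-route protease gene, gave 8.84, 7.67 and 7.93 CPM with FK228+YF, 17.3, 16.5 and 16.9 with FK228, 49.8, 57.8 and 51.9 with YF, and 81.1, 77.0 and 75.3 in control. The groups stood in that order from low to high without overlap, and the log2 fold changes against control were -3.25 ± 0.08 with FK228+YF, -2.2 ± 0.07 with FK228 and -0.55 ± 0.07 with YF.

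The convertase genes C2, Cfb and C3 were lower with FK228+YF, and C4b was higher with each treatment. C2 gave 16.8, 15.7 and 16.9 CPM with FK228+YF, 24.2, 29.9 and 27.5 with FK228, 35.5, 30.5 and 32.5 with YF, and 39.9, 51.3 and 42.3 in control. The FK228+YF libraries lay below all others and the control libraries above all others. C2 fell by 1.43 ± 0.10 on the log2 scale with FK228+YF (adjusted p = 2.26e-11, edgeR), by 0.71 ± 0.09 with FK228 and by 0.44 ± 0.09 with YF. Cfb, the C2 counterpart of the alternative route, gave 198, 175 and 175 CPM with FK228+YF, 239, 256 and 262 with FK228, 341, 298 and 337 with YF, and 333, 415 and 364 in control. It fell with FK228+YF (-1.02 ± 0.08) and with FK228 (-0.55 ± 0.08), and its YF and control libraries overlapped (-0.19 ± 0.08, adjusted p = 0.0648, and 0.00878 to 0.358 over 19 alternative settings, called in 4). Cfb and C2 are neighbours, 87 bases apart on chromosome 17. The GENCODE M21 annotation has a readthrough gene, Gm20547, over 79.5% of the Cfb and 42.8% of the C2 exon bases. How reads were split between Gm20547 and each of the 2 genes is therefore uncertain.

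C3 was called lower with FK228+YF and in neither of the single treatments. It gave 755, 713 and 763 CPM with FK228+YF, 968, 1310 and 1250 with FK228, 1360, 950 and 1160 with YF, and 929, 1430 and 1150 in control. The FK228+YF libraries lay below all others, and the remaining groups overlapped. The log2 fold change of FK228+YF against control was -0.65 ± 0.17 (adjusted p = 0.00533, edgeR), with 0.01 ± 0.17 for FK228 (0.967) and -0.02 ± 0.17 for YF (0.951). The interaction, which is the FK228 effect with YF minus the FK228 effect without YF, was -0.64 ± 0.24 for C3 (adjusted p = 0.0799, edgeR) and was not called. Over 18 alternative settings its adjusted p ran from 0.0157 to 0.173, and it was called in 4 of them: without control replicate 2 (-0.82), without FK228 replicate 1 (-0.78), without YF replicate 2 (-0.77) and in limma-voom (-0.64).

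C4b, a gene for complement C4, gave 3.46, 3.31 and 3.32 CPM with FK228+YF, 3.59, 5.58 and 3.51 with FK228, 9.84, 4.35 and 7.27 with YF, and 1.59, 2.35 and 1.56 in control. All treated libraries lay above the control libraries, the YF libraries varied most, and FK228 and YF overlapped. The log2 fold change was 0.87 ± 0.30 with FK228+YF (adjusted p = 0.0142, edgeR), 1.21 ± 0.29 with FK228 and 1.96 ± 0.27 with YF. The FK228+YF call ended without control replicate 1 (0.78) and without control replicate 3 (0.77). Reads of C4b may be split with C4a, which shares 16.5% of its transcript windows and stood at 3.24 ± 0.367 CPM with FK228+YF, 2.47 ± 0.233 with FK228, 1.52 ± 0.307 with YF and 1.36 ± 0.295 in control.

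The terminal pathway was near its detection limit. C6, a pore component, gave 0.125, 0.0404 and 0.168 CPM with FK228+YF, 0.163, 0.162 and 0.0827 with FK228, 0.079, 0.191 and 0.229 with YF, and 0.736, 1.35 and 0.739 in control. Control lay above each treated group without overlap, and C6 fell by 3.04 ± 0.51, 2.75 ± 0.49 and 2.46 ± 0.46 on the log2 scale with FK228+YF, FK228 and YF (adjusted p = 5.94e-06, 3.08e-05 and 0.00028 in edgeR with no count filter). The sums behind those groups were 8, 10 and 13 counts, against 73 counts in control. Hc, which encodes C5, summed to 26 counts with FK228+YF (95% exact interval 17.0 to 38.1), 6 with FK228 (2.2 to 13.1), 16 with YF (9.15 to 26.0) and 1 in control (0.0253 to 5.57). These intervals cover counting error only. Hc failed the count filter. With no filter it was called higher with FK228+YF and with YF (adjusted p = 0.000297 and 0.0152, edgeR), and not with FK228 (0.152).

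Complement regulators moved in different directions. The genes of the membrane-bound Cd55, which breaks up convertases, and Cd59a, which blocks the pore, rose with each treatment, and so did Clu. Cd55 gave 27.6, 31.5 and 29.9 CPM with FK228+YF, 24.8, 23.7 and 25.3 with FK228, 13.2, 14.8 and 12.6 with YF, and 8.13, 6.86 and 6.73 in control. Its 4 groups did not overlap, and the log2 fold changes against control were 2.03 ± 0.09 with FK228+YF, 1.76 ± 0.10 with FK228 and 0.90 ± 0.10 with YF (adjusted p = 3.48e-14, 9.9e-13 and 5.98e-07, edgeR). Cd59a gave 13.3, 14.5 and 13.9 CPM with FK228+YF, 14.5, 13.6 and 12.2 with FK228, 9.88, 8.88 and 9.37 with YF, and 5.11, 7.44 and 4.98 in control. Each treated group lay above control without overlap, by 1.25 ± 0.13, 1.2 ± 0.13 and 0.68 ± 0.13 on the log2 scale, while FK228+YF and FK228 overlapped.

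Clu gave 5940, 6160 and 5970 CPM with FK228+YF, 4680, 4760 and 4600 with FK228, 1780, 1490 and 1650 with YF, and 1130, 1390 and 1250 in control. The groups stood in that order from high to low without overlap, and the log2 fold changes against control were 2.26 ± 0.08, 1.90 ± 0.08 and 0.39 ± 0.08. Cfi, which encodes the plasma protease that inactivates C3b and C4b, went the other way with FK228. It gave 8.26, 6.54 and 7.13 CPM with FK228+YF, 8.77, 10.7 and 8.93 with FK228, 61.9, 53.1 and 60.3 with YF, and 38.7, 45.0 and 38.3 in control. Both FK228-treated groups lay below control and the YF group above it. Cfi fell with FK228+YF (-2.48 ± 0.10, adjusted p = 5.59e-15, edgeR) and with FK228 (-2.10 ± 0.10), and rose with YF (0.52 ± 0.09, adjusted p = 8.44e-05). Vtn, which encodes vitronectin, summed to 11 counts with FK228+YF, 0 with FK228, 4 with YF and 0 in control. It failed the count filter, and with no filter it was called higher with FK228+YF only (adjusted p = 0.00697, edgeR).

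**Figure D3:**
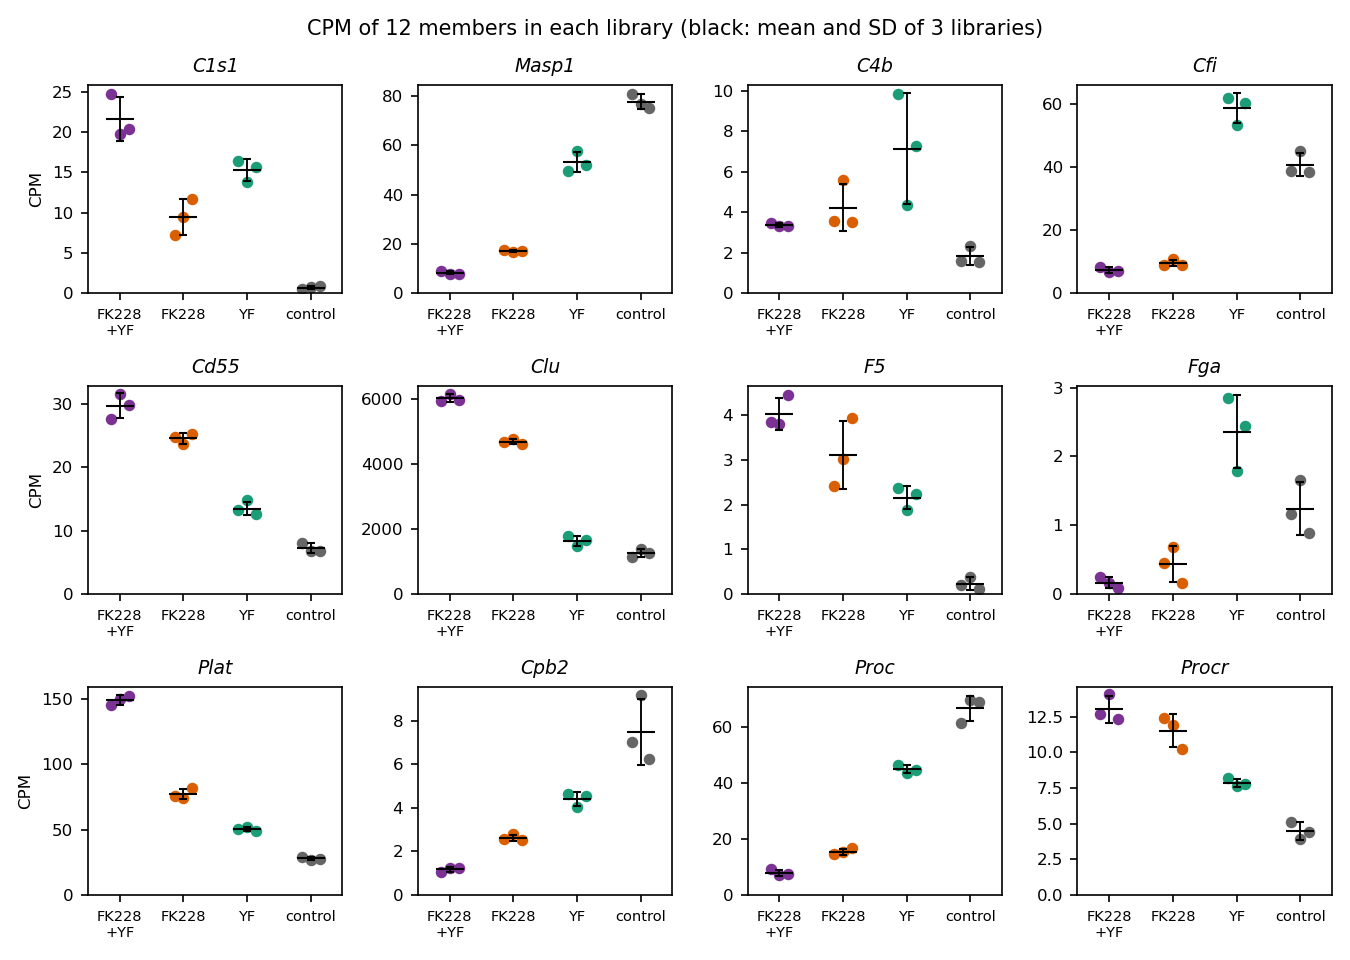
CPM of 12 members in each library, on a linear axis that starts at 0, with FK228+YF, FK228, YF and control from left to right. Coloured points are libraries, and black lines are the mean and SD of 3. The order of the groups differs by gene: C1s1, Cd55, Clu, F5, Plat and Procr are lowest in control, Masp1, Cpb2 and Proc are highest in control, and C4b, Cfi and Fga are highest with YF.

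On the clotting side, tissue factor had more RNA per length than the other genes of the tissue factor and common pathway. F3 gave 43.4, 55.8 and 45.2 CPM with FK228+YF, 72.5, 71.4 and 61.2 with FK228, 38.9, 50 and 41.5 with YF, and 45.9, 36.6 and 37.9 in control. The FK228 libraries lay above all others, and the other groups overlapped. F3 rose with FK228 (0.77 ± 0.12, adjusted p = 3.31e-05, edgeR). With FK228+YF it was 0.26 ± 0.12 and not called (adjusted p = 0.0539, edgeR). Over the 19 alternative settings that adjusted p ran from 0.0135 to 0.249, and F3 was called higher in 11 of them. In FK228-treated cells, F3 was lower with YF than without it (-0.51 ± 0.12, adjusted p = 0.00195).

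F5, which encodes the cofactor factor V, was low with each treatment and nearly absent in control. It gave 3.84, 3.80 and 4.45 CPM with FK228+YF, 2.41, 3.03 and 3.93 with FK228, 2.37, 1.87 and 2.25 with YF, and 0.194, 0.385 and 0.117 in control. Every treated library lay above every control library. The log2 fold changes were 4.09 ± 0.31 with FK228+YF, 3.72 ± 0.32 with FK228 and 3.19 ± 0.33 with YF, from 18 counts over the control libraries. F5 passed the count filter through the treated groups, and with no filter its adjusted p was 1.86e-19, 6.77e-17 and 2.4e-12 in that order (edgeR). F7, the gene of the tissue factor partner factor VII, summed to 36 counts with FK228+YF, 18 with FK228, 16 with YF and 0 in control. Scaled to depth, these sums were 12.9-fold, 6.12-fold and 5.51-fold a floor of 3 counts over the control group. Those folds leave out counting error, with 95% exact intervals of 25.2 to 49.8, 10.7 to 28.4 and 9.15 to 26.0 counts. F7 failed the count filter. Without a filter it was called in each of these comparisons (adjusted p = 9.77e-07, 0.000152 and 0.00129, edgeR). F2 (prothrombin) summed to 2, 10, 15 and 17 counts in the same order of groups and F10 (factor X) to 7, 4, 8 and 1. Both failed the filter. Without it F2 was called lower with FK228+YF only (adjusted p = 0.0148, edgeR), and F10 was not called against control.

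The contact pathway was not tested for any of its 4 members. F11, F12, Klkb1 (prekallikrein) and Kng1 (kininogen) summed to between 0 and 12 counts in each group. The most any of them reached was 12 counts, for F11 in control.

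The fibrinogen genes lie side by side on chromosome 3, in the order Fgg, Fga and Fgb, with 11096 and 8618 bases between neighbours. Fga and Fgb, which encode the alpha and beta chains, were measured at low levels, and Fgg, the gamma chain gene, summed to 4 counts with FK228+YF, 3 with FK228, 1 with YF and 3 in control. The promoters of these 3 genes are shown because Fga and Fgb were both lower with FK228+YF and higher with YF, and that of F5 because it rose with FK228+YF, where Fga and Fgb fell. Each run gives the 250 bases before the RefSeq start site, 5′ to 3′ on the gene's own strand (GRCm38.p6). Capitals mark matches to 6 searched motifs on either strand: TTGCNNAA (C/EBP), CTGGGAA (the IL-6 response element), TTCNNNGAA (STAT), TGA and TCA around any base (AP-1), GGGCGG (GC box) and TATAAA, the core of the TATA box.
Fga (chr3:83025903-83026152, plus strand): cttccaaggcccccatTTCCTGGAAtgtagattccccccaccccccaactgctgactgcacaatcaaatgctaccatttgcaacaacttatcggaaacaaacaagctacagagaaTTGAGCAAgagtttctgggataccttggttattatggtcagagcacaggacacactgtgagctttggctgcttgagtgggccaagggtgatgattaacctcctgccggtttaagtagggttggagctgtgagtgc
Fgb (chr3:83049864-83050113, minus strand): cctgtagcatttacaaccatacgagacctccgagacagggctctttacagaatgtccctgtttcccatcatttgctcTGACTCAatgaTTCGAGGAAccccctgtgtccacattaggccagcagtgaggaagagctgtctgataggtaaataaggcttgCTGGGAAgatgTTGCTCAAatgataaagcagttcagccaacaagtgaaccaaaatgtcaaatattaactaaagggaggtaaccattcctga
Fgg (chr3:83007474-83007723, plus strand): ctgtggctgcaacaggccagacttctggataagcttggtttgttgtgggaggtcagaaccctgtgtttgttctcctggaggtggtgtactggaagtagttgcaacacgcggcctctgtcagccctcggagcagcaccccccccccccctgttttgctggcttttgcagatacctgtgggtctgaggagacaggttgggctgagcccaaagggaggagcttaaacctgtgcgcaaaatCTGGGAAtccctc
F5 (chr1:164151585-164151834, plus strand): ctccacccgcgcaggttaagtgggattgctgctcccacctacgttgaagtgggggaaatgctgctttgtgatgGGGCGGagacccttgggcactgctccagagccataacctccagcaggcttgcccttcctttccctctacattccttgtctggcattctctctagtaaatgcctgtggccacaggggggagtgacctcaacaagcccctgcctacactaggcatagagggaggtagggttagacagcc

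The Fga and Fgb windows both hold C/EBP and STAT matches, and the Fgg window holds neither. Counted from the start site, the Fga matches begin at -135 for C/EBP and -234 for STAT. In Fgb they begin at -80 for C/EBP, -91 for the IL-6 response element, -162 for STAT and -173 for AP-1. Fgg holds the IL-6 response element at -13, and F5 holds a GC box alone. Over 32851 start sites of the same table, 9.56% held the C/EBP letters, 9.1% the IL-6 element, 7.02% STAT, 6.75% AP-1, 32.7% the GC box and 12.4% the TATA box. Of the 38 members, 25 had a promoter in the table, of which 8 held the C/EBP letters, 4 the IL-6 element, 3 STAT, 5 AP-1, 6 the GC box and 4 the TATA box. These are letter matches in a window, not binding sites.

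Fga gave 0.250, 0.162 and 0.0839 CPM with FK228+YF, 0.449, 0.688 and 0.165 with FK228, 2.85, 1.79 and 2.44 with YF, and 1.16, 1.66 and 0.894 in control. Both FK228-treated groups lay below control and the YF group above it, without overlap. Against control, Fga fell with FK228+YF (-2.87 ± 0.48, adjusted p = 5.46e-08 in edgeR with no count filter) and with FK228 (-1.50 ± 0.39, adjusted p = 0.000484, likewise). With YF it was higher by 0.93 ± 0.31 (adjusted p = 0.0159, likewise), and this was no longer called on leaving out YF replicate 1 (0.77), YF replicate 3 (0.90), control replicate 1 (0.88) or control replicate 3 (0.74), nor in DESeq2 (0.92). Fgb gave 0.167, 0.364 and 0.0839 CPM with FK228+YF, 0.653, 0.405 and 0.331 with FK228, 1.94, 1.30 and 1.52 with YF, and 0.736, 0.771 and 0.389 in control. The YF libraries lay above all others, the FK228+YF libraries lay below control, and the FK228 and control libraries overlapped. Fgb fell with FK228+YF (-1.59 ± 0.48, adjusted p = 0.0031 in edgeR with no count filter), or by 2.29 on the log2 scale without FK228+YF replicate 2. With FK228, where Fga fell, Fgb was not called (-0.44 ± 0.41, adjusted p = 0.434 with no filter). Only in the YF group, where Fgb was highest, did all libraries reach the count minimum. With no filter Fgb was called higher with YF (1.32 ± 0.34 in the filtered fit, adjusted p = 0.00458 in edgeR with no filter). F13b, which encodes a subunit of the clot-linking factor XIII, had 1 count in all, with FK228+YF.

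Of the fibrinolysis genes, Plat rose and Cpb2 fell with each treatment, so the plasminogen activator and a gene that protects fibrin from lysis moved apart. Plat gave 145, 150 and 152 CPM with FK228+YF, 75.9, 74.2 and 81.4 with FK228, 50.1, 51.7 and 49.0 with YF, and 28.9, 27.0 and 27.7 in control. The 4 groups did not overlap. Plat rose by a log2 fold change of 2.42 ± 0.06 with FK228+YF, 1.47 ± 0.06 with FK228 and 0.85 ± 0.06 with YF (adjusted p = 1.79e-18, 8.73e-15 and 7.96e-10, edgeR). Cpb2, which encodes the carboxypeptidase TAFI, gave 1.04, 1.25 and 1.26 CPM with FK228+YF, 2.57, 2.79 and 2.52 with FK228, 4.62, 4.04 and 4.53 with YF, and 7.01, 9.17 and 6.26 in control. Those groups did not overlap either, and Cpb2 fell by 2.65 ± 0.18, 1.51 ± 0.16 and 0.77 ± 0.15 on the log2 scale.

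The urokinase system moved little. Plau (urokinase) averaged 2.85 ± 0.181 CPM with FK228+YF, 2.49 ± 0.139 with FK228, 2.74 ± 0.262 with YF and 1.91 ± 0.191 in control. Its log2 fold change was 0.58 ± 0.18 with FK228+YF, 0.38 ± 0.18 with FK228 and 0.52 ± 0.18 with YF (adjusted p = 0.00552, 0.0636 and 0.0282, edgeR), and the FK228 value was called in 1 of 18 alternative settings. Plaur averaged 106 ± 6.11, 98.0 ± 10.1, 106 ± 5.20 and 91.8 ± 5.78 CPM in the same groups, with log2 fold changes of 0.21 ± 0.07 with FK228+YF and 0.20 ± 0.07 with YF (adjusted p = 0.0113 and 0.0321). The Plau call with YF ended without control replicate 2 (0.48) or 3 (0.47) or YF replicate 1 (0.48) or 2 (0.48), and in 3 other settings. The Plaur call with YF ended without control replicate 2 (0.15), YF replicate 2 (0.17) or 3 (0.21), FK228 replicate 2 (0.19) and in DESeq2 (0.19), and that with FK228+YF without control replicate 2 (0.15) or FK228+YF replicate 2 (0.17). Plg (plasminogen) summed to 12 counts with FK228+YF, 6 with FK228, 4 with YF and 0 in control, and A2m (the protease inhibitor alpha-2-macroglobulin) to 1 count in all, with YF. Both failed the count filter. With no filter Plg was called higher with FK228+YF and FK228 (adjusted p = 0.00467 and 0.0424, edgeR), and not with YF (0.172).

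In the protein C system, the zymogen and its receptor moved in opposite directions. Proc, the gene of protein C, gave 9.13, 7.23 and 7.39 CPM with FK228+YF, 14.7, 15.3 and 16.7 with FK228, 46.5, 43.5 and 44.8 with YF, and 61.4, 69.8 and 69.0 in control. Procr gave 12.7, 14.1 and 12.3 CPM with FK228+YF, 12.4, 11.9 and 10.2 with FK228, 8.18, 7.62 and 7.77 with YF, and 5.15, 3.93 and 4.43 in control. The Proc groups did not overlap, and each Procr group with a treatment lay above control. Proc fell by 3.08 ± 0.09 on the log2 scale with FK228+YF (adjusted p = 2.27e-17, edgeR), by 2.10 ± 0.08 with FK228 and by 0.57 ± 0.08 with YF. Procr rose by 1.53 ± 0.12, 1.35 ± 0.12 and 0.80 ± 0.13 on the same scale (adjusted p = 1.97e-10, 3.37e-09 and 5.07e-05).

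The cofactor gene Pros1 (protein S) and Tfpi (the tissue factor pathway inhibitor) moved less. Pros1 averaged 24.7 ± 0.861 CPM with FK228+YF, 24.1 ± 2.2 with FK228, 34.3 ± 0.884 with YF and 24.3 ± 1.69 in control, and rose with YF alone among these (0.50 ± 0.08, adjusted p = 4.07e-05, edgeR). Tfpi averaged 8.08 ± 0.520, 9.61 ± 1.32, 7.18 ± 0.511 and 7.19 ± 0.783 CPM in those groups, and rose with FK228 (0.42 ± 0.12, adjusted p = 0.00468). Thbd, the gene of thrombomodulin, on which protein C is activated, summed to 0 counts with FK228+YF, 1 with FK228, 0 with YF and 3 in control.

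Set directly against YF, FK228+YF gave 7 higher and 12 lower members, or 79.2% called against 70.6% of all genes (34.7% higher and 35.9% lower), with a median of -0.52 for the members and 0 for all genes. The largest falls were in Fga (-3.79 ± 0.44), Cfi (-3.0 ± 0.10), Fgb (-2.91 ± 0.43), Masp1 (-2.71 ± 0.08) and Proc (-2.51 ± 0.09). Clu (1.87 ± 0.08), Plat (1.57 ± 0.06) and Cd55 (1.13 ± 0.09) had the largest rises. Against FK228, FK228+YF gave 4 higher and 9 lower members, or 54.2% called against 52.9% of all genes (26.6% higher and 26.3% lower). The 4 that rose were C1s1 (1.2 ± 0.14), Plat (0.95 ± 0.05), Clu (0.36 ± 0.08) and Cd55 (0.27 ± 0.08). The Cd55 call ended without FK228 replicate 2 (0.23) or FK228+YF replicate 2 (0.21). Among the 9 that fell were Cpb2 (-1.15 ± 0.21), Masp1 (-1.05 ± 0.09) and Proc (-0.97 ± 0.10). The Fga value of -1.37 ± 0.57 lost its call in 9 of 18 alternative settings that kept it, down to -0.89 without FK228 replicate 2.

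FK228 against YF, without the combination, gave 8 higher and 12 lower members, or 83.3% called against 61.2% of all genes (27.8% higher and 33.3% lower). Clu (1.51 ± 0.08), Cd55 (0.86 ± 0.09), F3 (0.65 ± 0.12) and Plat (0.62 ± 0.06) were higher with FK228. Cfi (-2.63 ± 0.10), Fga (-2.42 ± 0.37), Fgb (-1.76 ± 0.37), Masp1 (-1.65 ± 0.07) and Proc (-1.53 ± 0.08) were lower with FK228. C1s1 and C1ra were lower as well, by 0.70 ± 0.14 and 0.93 ± 0.08 on the log2 scale. The F5 value of 0.53 ± 0.22 (adjusted p = 0.028 in edgeR with no count filter) lost its call in 6 of 18 alternative settings that kept it and stood at 0.33 without FK228 replicate 3.

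The FK228 effect differed between cells with and without YF for 14 members, and the difference was negative in each of the 14. Hdac1 RNA was itself higher with FK228+YF than with YF (0.99 ± 0.06, adjusted p = 2.01e-12, edgeR). The FK228 effect with YF therefore also spans a difference in Hdac1 RNA, and the part of Hdac1 in the interactions was not tested. This is 58.3% of the tested members, where 26.5% of all genes were called, 11.1% higher and 15.3% lower. Of the 20 members that reached the count minimum in every group, 11 were called, also negative. The median interaction was -0.56 for the members and -0.04 for all genes. For C1s1 the FK228 effect was 0.50 ± 0.13 with YF and 3.78 ± 0.22 without it, and for F5 it was 0.90 ± 0.21 and 3.72 ± 0.32. For C4b it was -1.09 ± 0.25 with YF and 1.21 ± 0.29 without it, with both effects called. Cd55, Cd59a and Procr rose with FK228 in both settings and by less with YF, at 1.13 ± 0.09, 0.57 ± 0.12 and 0.73 ± 0.11 with YF and 1.76 ± 0.10, 1.2 ± 0.13 and 1.35 ± 0.12 without it.

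Other members fell by more when YF was present. The FK228 effect on Cfi was -3.0 ± 0.10 with YF and -2.10 ± 0.10 without it, and that on Masp1 was -2.71 ± 0.08 and -2.2 ± 0.07. For Fga the FK228 effect was -3.79 ± 0.44 with YF and -1.50 ± 0.39 without it, and for Fgb -2.91 ± 0.43 and -0.44 ± 0.41. The Fga interaction of -2.30 ± 0.65 (adjusted p = 0.00332 in edgeR with no count filter) lost its call without FK228 replicate 2 (-1.81), and that of Fgb was -3.17 without FK228+YF replicate 2. The Proc interaction was -0.40 ± 0.12 (adjusted p = 0.0189), and its call ended without FK228 replicate 3 (-0.35) or FK228+YF replicate 2 (-0.35) or 3 (-0.36). Clu and Plat had interactions of -0.02 ± 0.11 and 0.10 ± 0.08 (adjusted p = 0.91 and 0.41, edgeR) and were not called.

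**Figure D4:**
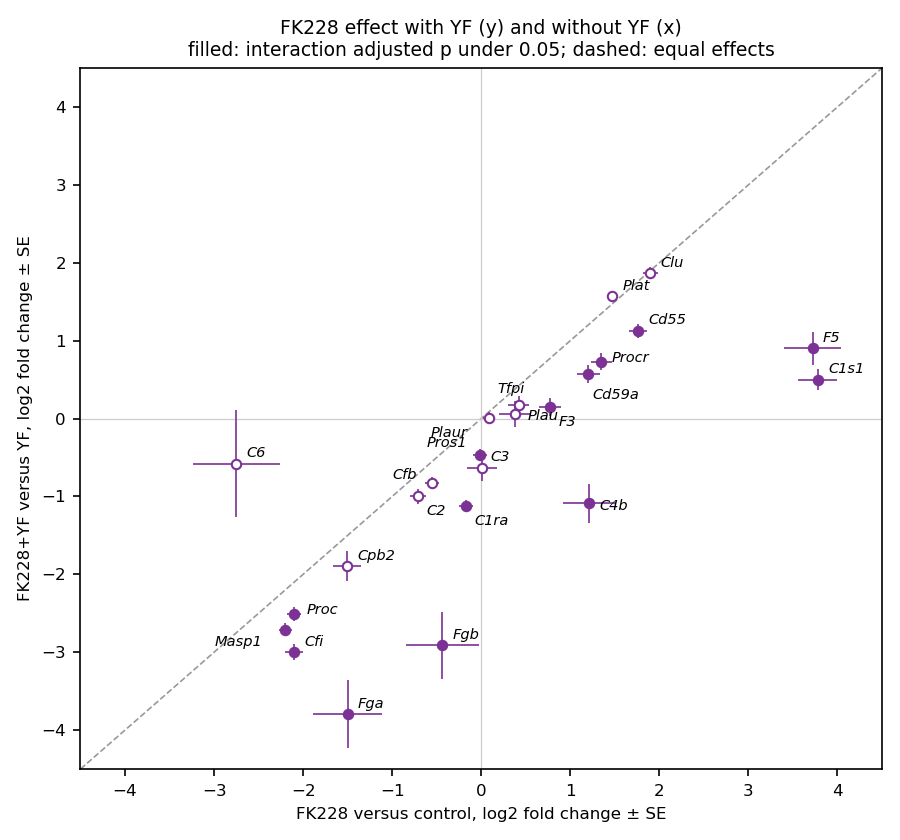
Log2 fold change ± SE of FK228+YF versus YF (vertical axis) against FK228 versus control (horizontal axis) for the 24 tested members. Points under the dashed line of equal effects have a negative interaction, and filled points are the 14 called ones. C1s1 and F5 lie far right with little height, and Fga and Fgb lie below the line.

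Other genes of the pathways were listed by function and counted in the same way. Of all genes tested, 77.4% were called with FK228+YF (38.8% higher and 38.6% lower) and 68.8% with FK228 (33.2% higher and 35.5% lower). With YF, 32.6% were called (18.0% higher and 14.6% lower), and these shares stand beside each list below. Of 40 other complement genes, 18 were tested, and 9 rose and 4 fell with FK228+YF, 9 rose and 1 fell with FK228, and 6 rose and 1 fell with YF. C4bp, a C4b-binding cofactor of factor I, stood at 16.1 ± 1.23 CPM with FK228+YF, 24.0 ± 0.874 with FK228, 15.5 ± 1.09 with YF and 9.87 ± 2.2 in control, and rose with each treatment. Cr1l, the rodent membrane regulator Crry, stood at 16.0 ± 1.18, 21.2 ± 1.36, 37.3 ± 3.89 and 42.9 ± 2.34 CPM, and fell with FK228+YF (-1.43 ± 0.09) and FK228 (-1.02 ± 0.08). C1rl, a C1r-like protease gene, fell with FK228+YF (-0.74 ± 0.17).

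Of 32 other coagulation and fibrinolysis genes, 21 were tested, and 12 rose and 8 fell with FK228+YF, 12 rose and 5 fell with FK228, and 3 rose and 5 fell with YF. Habp2, a plasma serine protease gene, fell with FK228+YF (-2.92 ± 0.08), FK228 (-1.91 ± 0.08) and YF (-0.29 ± 0.08), and so did Hgfac, the gene of the hepatocyte growth factor activator (-2.68 ± 0.10, -1.86 ± 0.09 and -0.69 ± 0.09).

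Of 14 genes for gamma-carboxylation and clotting factor secretion 10 were tested, and 5 rose and 1 fell with FK228+YF, 4 rose and 3 fell with FK228, and 6 rose and 1 fell with YF. Vkorc1, which recycles the vitamin K that protein C, prothrombin and their relatives need, averaged 228 ± 5.34 CPM with FK228+YF, 161 ± 9.85 with FK228, 118 ± 7.23 with YF and 90.9 ± 2.57 in control. It rose in each comparison with control (1.33 ± 0.06, 0.82 ± 0.06 and 0.38 ± 0.06). The propeptide-cutting protease gene Furin fell in each (-1.60 ± 0.09, -1.09 ± 0.09 and -0.45 ± 0.09), and the related Pcsk7 rose in each (0.67 ± 0.07, 0.18 ± 0.07 and 0.27 ± 0.07).

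Of 25 tested acute phase genes of 27, 10 rose and 13 fell with FK228+YF, 12 rose and 10 fell with FK228, and 12 rose and 2 fell with YF. Hnf4a, a transcription factor of hepatocyte genes, gave 28.7 ± 1.24 CPM with FK228+YF, 50.6 ± 3.32 with FK228, 121 ± 5.81 with YF and 177 ± 7.51 in control. It fell in each comparison with control, by 2.63 ± 0.07, 1.81 ± 0.06 and 0.55 ± 0.06 on the log2 scale. The 5 members that fell with YF (Masp1, C2, C6, Cpb2 and Proc) likewise fell in each comparison with control. C1s1, C4b, Cd55, Cd59a, Clu, F5, Plat and Procr rose in each. Fga and Fgb were lower with FK228+YF and higher with YF, where Hnf4a was lower in both. The Fga rise with YF was called in 13 of 18 alternative settings. A link of Hnf4a to these genes was not tested. The acute phase gene Saa3 rose in each (2.75 ± 0.09, 1.55 ± 0.09 and 2.13 ± 0.09), and Orm3 fell with FK228+YF (-3.32 ± 0.25) and FK228 (-1.38 ± 0.19).

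Several members are also made by endothelial cells, macrophages or platelets. The 8 endothelial markers summed to 2.04 to 2.77 CPM with FK228+YF, 1.06 to 1.45 with FK228, 0.724 to 1.11 with YF and 0.232 to 0.539 in control, with 0, 1, 1 and 2 of them at 0 counts. The 10 macrophage or leukocyte markers summed to 57.9 to 68.9, 46.5 to 51.1, 105 to 128 and 136 to 182 CPM in the same groups, most of it Cd68 or Cd14, with 1, 1, 3 and 3 of them at 0 counts. The 6 platelet markers summed to 48.3 to 59.4, 95.5 to 112, 17.2 to 19.8 and 23.2 to 26.5 CPM, most of it Ppbp, with 1, 0, 0 and 0 at 0 counts. Of the 6 listed markers of hepatic stellate cells, 5 were in the table and summed to 28.5 to 34.9 CPM with FK228+YF, 25.7 to 27.3 with FK228, 10.8 to 16.0 with YF and 6.55 to 9.02 in control, most of it Des, with 1, 1, 1 and 0 of them at 0 counts. The cholangiocyte (bile duct cell) markers, again 5 of 6, summed to 4300 to 5120, 5420 to 5810, 5360 to 5580 and 4870 to 4940 CPM in the same groups, most of it Spp1, and none was at 0 counts. Among them the keratin gene Krt19 averaged 107 ± 6.41 CPM with FK228+YF, 173 ± 6.84 with FK228, 284 ± 24.1 with YF and 607 ± 82.6 in control. That is the same order of groups as Masp1, Proc and Hnf4a. Spp1 did not follow that order, at 4650 CPM with FK228+YF, 5350 with FK228, 5100 with YF and 4180 in control, where it was lowest. The part of these marker lists in the results on the members was not tested. The 7 hepatocyte markers in the table summed to 177 to 186 CPM with FK228+YF, 262 to 329 with FK228, 545 to 547 with YF and 619 to 672 in control. Most of each sum was Apob, and 4, 4, 3 and 2 of the markers averaged under 1 CPM in those groups.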

How the data were processed

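RNA-seq of AML12 cells was analysed in 12 libraries, 3 in each of 4 groups. Values deposited by the authors are expected counts per gene (estimated counts, not scaled to depth) and TPM, per the file headers. Per the submitters' processing notes, the tools were RSEM 1.2.12, Bowtie2 2.2.5, HISAT2 2.0.4 and DESeq2 1.4.5, given without roles, and GRCm38.p6 was the build. The 24 other columns of per-sample values and 16 of group averages were not used. Of the estimated counts, 16.6% are not whole numbers, and all were rounded. Positions and promoters are RefSeq's for GRCm38.p6, and exon overlaps and shared windows come from GENCODE M21.

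Genes were filtered with edgeR's filterByExpr (minimum count 10), TMM scaled the library sizes, and a robust quasi-likelihood model with 1 term per group was fitted to all 12 libraries (edgeR 4.0.16, limma 3.58.1, R 4.3.3). The 6 contrasts of groups and the interaction were tested over 13346 genes with Benjamini-Hochberg adjustment, and the script was tested on simulated counts. CPM carry TMM factors, and errors are SD over 3 libraries or the SE of the fit. Tests used counts, and TPM served to rank genes and to describe summed levels per group. Replicate libraries differed by more than sampling noise (chi-square per degree of freedom 3.65 to 22.6). The members and gene lists were chosen with earlier results of these data known. Library values are printed for called members with an absolute log2 fold change of 1 or more and 5 CPM or more in a group, at most 5 per role, and for members of roles with none or that stand apart. From each other list, up to 3 called genes of 5 CPM or more in a group were named by the largest changes with FK228+YF, and C1s2 and C4a were named after their values were seen. Some genes are not reported here. The alternatives were RLE scaling (the DESeq2 size factor method), no count filter, 5 CPM in 3 libraries, DESeq2 1.42.0, limma-voom, the compared groups alone, a replicate block and each library left out.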

Additional observations from a re-analysis of the deposited data

Results flagged for a closer look

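For 14 of the 24 tested members the FK228 effect with YF differed from that without YF by the test of the interaction itself (edgeR, adjusted p under the threshold of 0.05). Hdac1 RNA was also higher with FK228+YF than with YF, and its part in these differences was not tested. All 14 log2 differences of the members were negative. They were -3.28 for C1s1, -0.95 for C1ra and -0.50 for Masp1 among the initiating proteases, and -2.29 for C4b. Among the complement regulators they were -0.90 for Cfi, -0.63 for Cd55 and -0.63 for Cd59a. On the clotting side they were -0.62 for F3, -2.82 for F5, -2.30 for Fga and -2.46 for Fgb. The last 3 of these genes reached the count minimum in all libraries of some groups only. In the protein C system they were -0.40 for Proc, -0.62 for Procr and -0.46 for Pros1.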

How the results depend on the processing

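Over 19 alternative settings, each count of called members stayed within 1.5 times the value reported. Leaving out 1 library at a time gave 21 to 23 called members for FK228+YF versus control, 18 to 20 for FK228 versus control, 19 to 21 for YF versus control, 19 to 20 for FK228+YF versus YF, 10 to 15 for FK228+YF versus FK228, 18 to 20 for FK228 versus YF and 13 to 18 for the interaction. With the replicate number as a block the counts were 22, 18, 20, 19, 12, 19 and 14 in that order. Libraries that share a number correlated at -0.215 to 0.0887 over 18 pairs, none over 0.1. Among pairs with different numbers, control replicate 2 and YF replicate 1 correlated at 0.195, and control replicate 1 and YF replicate 2 at 0.187. With 3 libraries per group, these correlations cannot exclude a shared batch. Of 3133 values of single members under these settings, 3040 kept their side of the threshold, 51 lost the call and 42 gained one. Among values called in the main fit or the alternative, 0 reversed direction. Direction was not compared for values called in neither. The changes fell on 26 of 168 results. The cause was not tested. Counting only the 20 members over the count minimum in every group, a choice made after seeing the data, gave 17, 15, 16, 16, 12, 17 and 11 called members in the order of comparisons above. With RLE scaling the median of all genes moved by 0.02 with FK228+YF, 0.03 with FK228 and -0.012 with YF. Depth limits the 14 untested members, where 3 counts over a group correspond to about 0.04 CPM.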

Other observations

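In the control and YF groups, single libraries led the members more often than they led all genes. Control replicate 2 was the highest control library for 16 of the 24 tested members, 9 of the 12 complement members among them, and for 33.6% of all tested genes. YF replicate 1 was the highest YF library for 15 of the 24, again with 9 of the 12 complement members, and for 34.9% of all tested genes. In C4b, for example, YF replicate 1 had 9.84 CPM, against 4.35 and 7.27 CPM in the other YF libraries. In the other groups, FK228+YF replicate 2 led 37.5% of the tested members and 31.8% of all genes, and FK228 replicate 1 led 37.5 and 36.0%. This pattern was noticed in the data and was not tested.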
